A study of Mus musculus with 3 samples.

Results

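Sequenced nuclei of mouse DRG, the dorsal root ganglia that hold the cell bodies of sensory neurons, included a set of barcodes that carried neuronal transcripts but very little Malat1. A barcode is the tag shared by the transcripts of 1 captured particle, and a unique molecular identifier (UMI) marks 1 captured transcript. Members were chosen by measured values of each barcode: they were taken when more than 1000 genes were detected, when Malat1 made up under 0.5% of their UMIs, and when they held at least 5 UMIs over the sensory neuron genes Avil, Nefl, Nefm, Scn10a, Scn9a, Snap25 and Uchl1, with at least 3 of the 7 genes seen. This gave 1928 barcodes, here called low-Malat1 barcodes, of 13121 that passed the same neuron gate and of 19259 with more than 1000 genes. The other 11193 neuron-gated barcodes, with Malat1 at 0.5% or more, served as the comparison within each library.

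The series compares adult (3 months) and aged (21 months) wild-type C57BL/6 mice. Lumbar L3, L4 and L5 ganglia were frozen, nuclei were extracted and libraries were made with PIP-seq, which captures nuclei on barcoded particles without microfluidics. The adult group is 1 library and the aged group 2, with no treatment named for either, and values in threes below are in the order adult replicate 1, aged replicate 1, aged replicate 2. The number of mice behind each library is not given in the sources used here, so that p-values measure only the spread between libraries. The text on the series gives the aged mice a younger age than the sample labels, which were used.

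Total counts were 167664164, 95647106 and 69045987 UMIs, and more than 1000 genes were detected in 11518, 5130 and 2611 barcodes. The adult library shared 1 of these barcodes with each aged library, and the aged libraries shared 0. All 3 libraries are labelled male, but Xist, the noncoding RNA of the inactive X chromosome in females, stood at 1488, 857 and 944 CPM (UMIs scaled to a common library total, Malat1 left out) in the kept barcodes. The Y-linked genes Eif2s3y, Kdm5d and Uty reached at most 2.87 CPM, and Ddx3y stood at 21.7, 13.4 and 8.0 CPM. The methods of the study describe its aged mice as female. The 3 libraries thus go against the sex on their labels in the same way, and none stands apart from the others in this.

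Malat1 is a long noncoding RNA that is retained in the nucleus, in the speckles where splicing factors gather, and it is among the most abundant RNAs of most nuclei. RNAs such as Meg3, Kcnq1ot1 and Xist are likewise held in the nucleus, and unspliced transcripts of long genes are found there too. Mitochondrial mRNA, mRNA of ribosomal proteins and most mature mRNA of the cytoskeleton lie in the cytoplasm. The balance between these kinds of RNA is therefore a common measure of what a barcode in a nuclear preparation holds. Since the classes were split by a measured transcript of the same barcodes, genes whose counts follow Malat1 differ between the classes by the way these were made. Counts of genes past a threshold in this contrast describe the split over 3 libraries and are no independent test of it. Malat1 and the 7 gate genes were left out of all tests.

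Malat1 made up a median of 0.251, 0.151 and 0.132% of the UMIs of low-Malat1 barcodes and 4.48, 1.57 and 1.62% of those of other neuron-gated barcodes. No Malat1 UMI was seen in 2 of 567, 51 of 976 and 30 of 385 low-Malat1 barcodes. In free RNA, taken as the sum over barcodes of 100 or fewer UMIs, Malat1 made up 2.77, 1.49 and 1.33%. The limit itself lies below the share in free RNA of each library, so every low-Malat1 barcode was below free RNA by the rule. There was no gap in the distribution at the limit: 84, 118 and 39 barcodes lay between 0.4% and 0.5%, and 94, 112 and 37 lay between 0.5% and 0.6%.

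**Figure D1:**
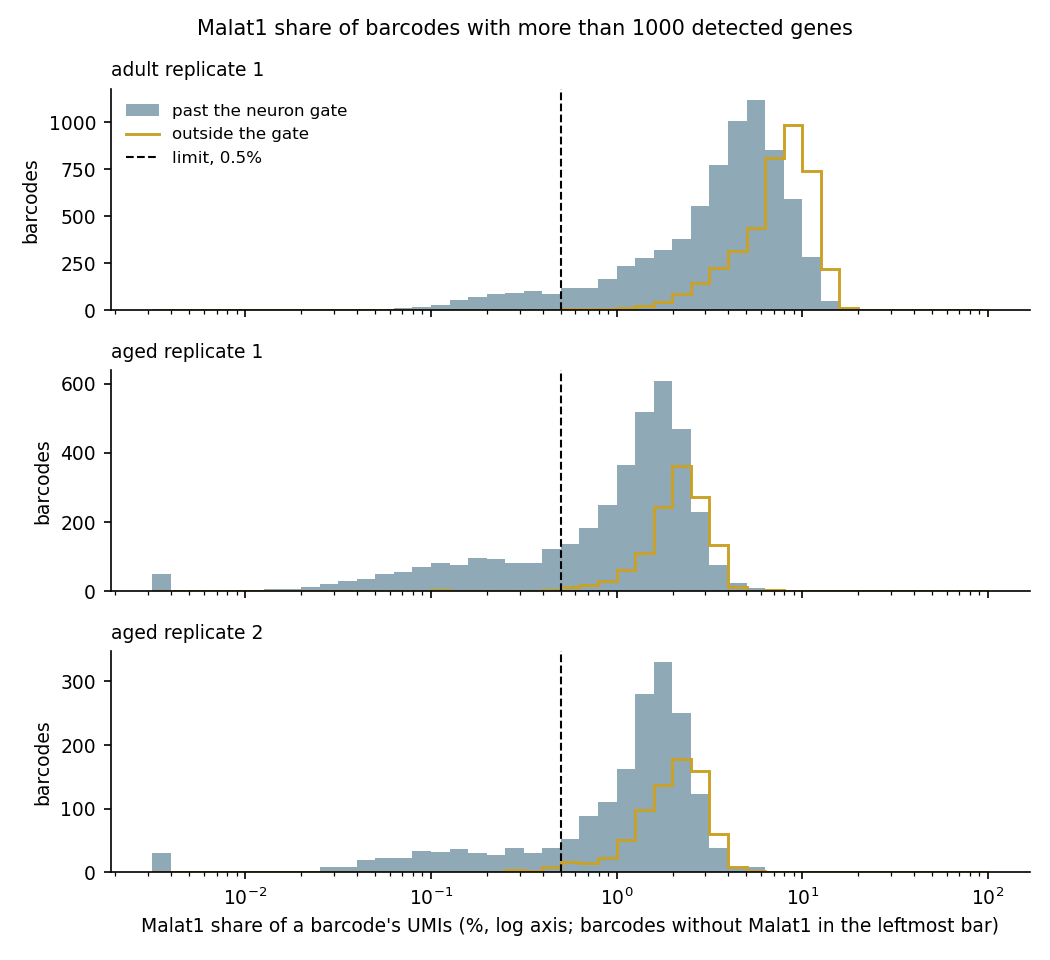
Number of barcodes by Malat1 share of UMIs (log axis, percent), with 1 panel for each library. Filled bars are the 7429, 3849 and 1843 neuron-gated barcodes, the open line is the barcodes outside the gate, and the dashed line is the 0.5% limit. Neuron-gated barcodes trail to the left of the limit without a gap, while barcodes outside the gate lie almost wholly to its right.

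Most barcodes with little Malat1 passed the neuron gate. Of the barcodes below the limit, 98.6, 98.6 and 95.3% passed the gate, and 8, 14 and 19 barcodes did not. Of the barcodes at or above the limit, 62.7, 69.4 and 66.1% passed it. The gate genes made up a median of 1.53, 1.48 and 1.27% of the UMIs of low-Malat1 barcodes and 0.448, 0.475 and 0.415% of those of the other neuron-gated barcodes, and 1.05, 1.5 and 1.33% of free RNA. At the median depth of low-Malat1 barcodes, free RNA alone would hold 37.7, 57.7 and 45.2 gate UMIs, against medians of 67, 61 and 51 in these barcodes, so that passing the gate of 5 UMIs does not by itself show a neuron. The other neuron-gated barcodes held medians of 21, 27 and 33 gate UMIs, fewer than the 43.6, 82.4 and 98.2 that free RNA would hold at their depth. Nefl, the light neurofilament subunit, stood at 7661, 5431 and 4850.0 CPM in low-Malat1 sums and 1406, 1033 and 616 CPM in the others. Scn10a, the sodium channel of nociceptors, stood at 619, 506 and 534 CPM against 853, 730.2 and 905 CPM. These values belong to the rule. Neuronal genes outside it, such as Tubb3, Prph and Rbfox3, were abundant as well, with the values given further on. Their levels in free RNA are not given here, so they too do not by themselves show a neuron.

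The gate alone does not remove barcodes that also carry markers of other cells. The gate UMIs exceeded the summed UMIs of the markers of satellite glia, myelinating Schwann, fibroblast, endothelial, mural and myeloid cells in 95.1, 93.2 and 91.4% of low-Malat1 barcodes. They did so in only 61, 60.1 and 68.7% of the other neuron-gated barcodes. Each main result except the subtype gates was therefore also computed among such neuron-led barcodes of both classes, a choice made after seeing the data. As that choice selects on the markers of other cells, and left out more of the other barcodes, those markers are not compared in it. At least 5 UMIs over the satellite glia and myelinating Schwann cell markers, here called glial marker UMIs, were held by 71.3, 66.6 and 61% of low-Malat1 barcodes and 77.5, 77.8 and 72.5% of the others, and leaving such barcodes out was another alternative. Low-Malat1 barcodes were shallower, with a median of 3606, 3858 and 3398 UMIs and 2022, 2096 and 1914 genes, against 4164, 5509 and 7380 UMIs and 2152, 2627 and 3146 genes. No doublet caller was run.

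Low-Malat1 barcodes took a larger share of the neuron-gated barcodes in both aged libraries. They were 567 of 7429 in the adult library, or 7.63% (exact 95% interval 7.04 to 8.26%). They were 976 of 3849 in aged replicate 1, or 25.4% (24 to 26.8%), and 385 of 1843 in aged replicate 2, or 20.9% (19.1 to 22.8%). These are Clopper-Pearson intervals, which cover counting error only. With 3 libraries an exact two-sided permutation test of the labels gave p = 0.333, the smallest it can give. With a limit of 0.25% the shares were 3.76, 17.9 and 15%, and with 1% they were 13.1, 40.2 and 34.5%, so that the aged libraries stayed above the adult one. The level of Malat1 in the other barcodes and in free RNA was itself lower in the aged libraries, as given above, and its part in the difference was not tested.

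The share also varied with the number of genes detected. Among neuron-gated barcodes of 1000 to 1500 genes it was 10.1, 31.6 and 34.2%, and among those of more than 5000 genes it was 2.78, 15 and 7.38%. Both aged libraries lay above the adult one in each of the 5 ranges of genes detected. In the adult library the highest share, 12.2%, was that of barcodes with 3000 to 5000 genes, so the share did not fall evenly with depth there.

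The RNA of low-Malat1 barcodes was rich in cytoplasmic and poor in nuclear species in every library. The 13 mRNAs of the mitochondrial genome, which encode respiratory chain subunits, made up 0.735, 0.758 and 0.655% of UMIs (Malat1 left out) in low-Malat1 sums and 0.219, 0.287 and 0.151% in the other sums. Their mean log2 ratio within library was 1.75 ± 0.36 (SD, n = 3), a 3.37-fold higher share. The 79 mRNAs of cytoplasmic ribosomal proteins made up 1.58, 1.42 and 1.34% against 0.674, 0.683 and 0.495%, with a mean log2 ratio of 1.24 ± 0.19, or 2.37-fold.

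In the other direction, 10 nuclear long noncoding RNAs without Malat1 made up 0.182, 0.171 and 0.161% of low-Malat1 sums and 1.8, 1.0 and 1.13% of the others, a mean log2 ratio of -2.89 ± 0.38 (7.4-fold lower). The 24 very long genes for synaptic adhesion and related proteins made up 0.689, 0.711 and 0.723% against 4.68, 3.6 and 3.76%, a mean log2 ratio of -2.49 ± 0.23 (5.63-fold lower). All 3 libraries had the same direction for each of the 4 kinds of RNA, and the ranges of the classes did not overlap. As they come from the split itself, these ratios are given without a test. In free RNA the 4 shares were 0.819, 0.798 and 0.671% for mitochondrial mRNA, 2.19, 2.11 and 2.24% for ribosomal protein mRNA, 0.944, 0.652 and 0.543% for the nuclear noncoding RNAs and 2.23, 1.86 and 1.75% for the adhesion genes. Low-Malat1 sums thus held a smaller share of each of the 4 kinds of RNA than free RNA did in all 3 libraries, by the least for mitochondrial mRNA.

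The nuclear species were more abundant in bins of higher Malat1. Neuron-gated barcodes of the adult library held 0.0912% nuclear noncoding RNA below 0.1% Malat1, 0.315% between 0.4% and 0.5%, 0.871% between 0.5% and 0.6%, and 2.11% between 4% and 8%. The same bins held 0.0674%, 0.36%, 0.462% and 1.27% in aged replicate 1 and 0.0651%, 0.466%, 0.455% and 1.68% in aged replicate 2. The adult library thus had a step at the limit that the aged libraries did not have. The mitochondrial share was high on both sides of the limit. It was 0.756% below 0.1% Malat1, 0.62% between 0.8% and 1%, 0.621% between 1% and 2% and 0.276% between 2% and 4% in the adult library. It was 0.742%, 0.696%, 0.237% and 0.147% in aged replicate 1, and 0.576%, 0.432%, 0.128% and 0.0723% in aged replicate 2. Barcodes just above the limit were therefore near those below it in mitochondrial RNA, and the main drop came at 1% in the aged libraries and at 2% in the adult one.

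**Figure D2:**
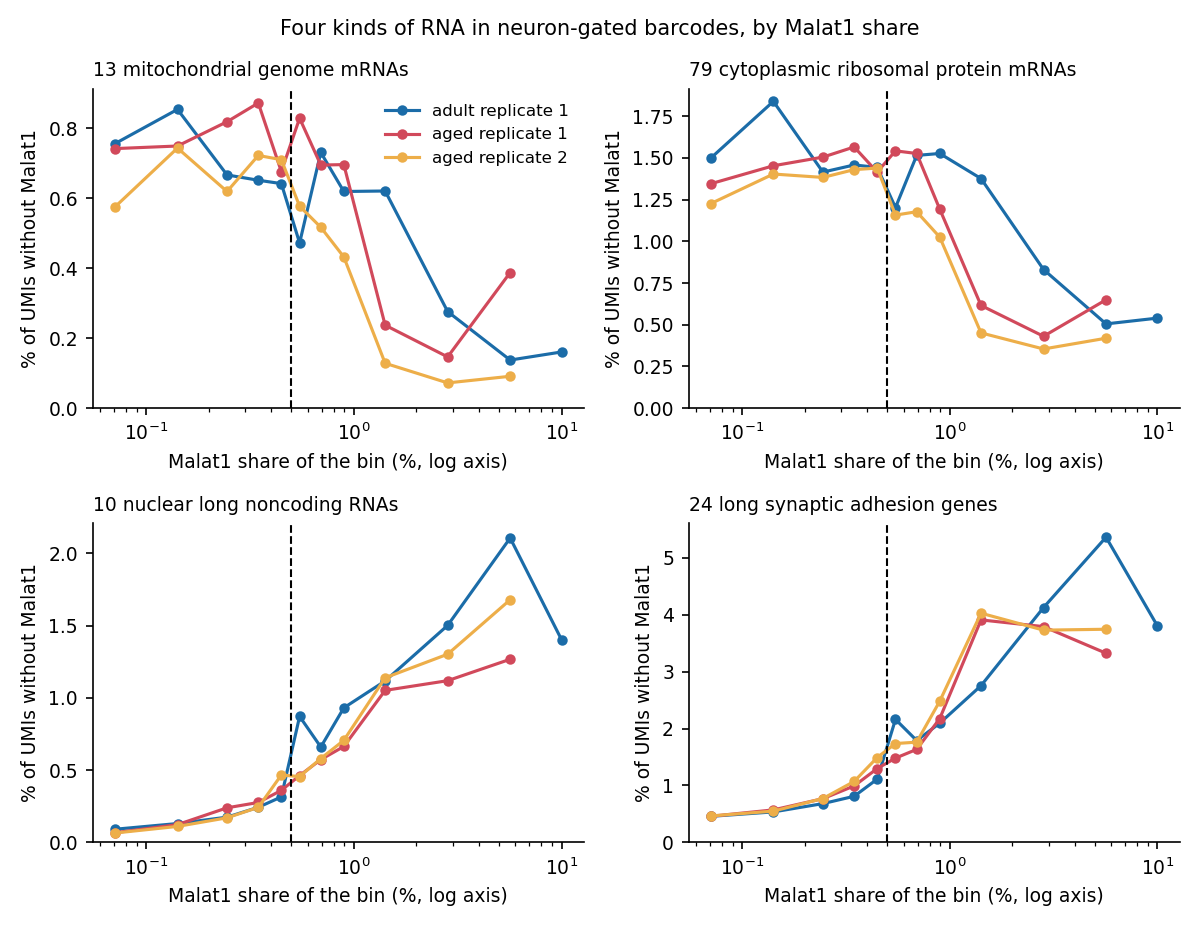
Share of UMIs (percent, Malat1 left out) in 4 kinds of RNA, summed over the neuron-gated barcodes of each bin of Malat1 share (log axis), for bins of at least 20 barcodes. Lines are libraries, and the dashed line is the 0.5% limit. The cytoplasmic kinds are high up to 1% Malat1 in the aged libraries and up to 2% in the adult one, and low above. In the adult library they have a local dip just above the limit. The nuclear kinds are lowest in the lowest bins and higher in the bins of 1% and more, with a local peak just above the limit in the adult library.

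Gene by gene, the classes differed widely. With the quasi-likelihood test of edgeR on the 6 sums and the library as a block, 12643 of 18610 genes passed an adjusted p under 0.05 (67.9%), of which 5778 were higher in low-Malat1 barcodes (31.0%) and 6865 were lower (36.9%). More than 2-fold differences were found for 3373 higher and 4977 lower genes. The filter on low counts can be reached through either class alone. The direction of genes that entered in that way was fixed by the filter, and they were not counted apart. The median over all genes tested was a log2 fold change of -0.25, and it was -0.40 with scaling to total counts and -0.17 with the size factors of DESeq2. Among neuron-led barcodes, 11719 of the 12643 genes were called again with the same sign. Log2 fold changes below are fitted values, low-Malat1 against other, with standard errors derived from the F statistic of the test. Levels are CPM of the summed UMIs.

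The heavy neurofilament gene Nefh (chromosome 11, 4938754 to 4948064, GRCm38), which encodes a subunit of the axonal cytoskeleton, had the largest excess among genes of at least 50 CPM. It stood at 6040.4, 4908 and 4245 CPM in low-Malat1 barcodes and 817, 767 and 416 CPM in the others, so that every library had several times more. The log2 fold change was 3.10 ± 0.13. Free RNA held 1824, 4117 and 2994 CPM of Nefh, less than the low-Malat1 barcodes of the same library in each case. Scn4b (chromosome 9, 45138395 to 45154152), a beta subunit of sodium channels in fast-firing neurons, stood at 332, 396 and 395 CPM against 55.4, 70.9 and 57.3 CPM, a log2 fold change of 2.75 ± 0.11.

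The other 8 of the 10 genes with the largest excess were Tpbgl, Chst2, Trappc3l, Cabp7, Nptx1, Creg2, Tuba4a and Diras1, with log2 fold changes from 2.56 to 2.77. Tuba4a, an alpha-tubulin, stood at 308, 345 and 307 CPM against 59.4, 74.1 and 47 CPM. Nptx1, a secreted pentraxin of synapses, stood at 183, 183 and 182 CPM against 30.5, 38.8 and 31.9 CPM, and Cabp7, a calcium-binding protein, at 34.8, 56.8 and 65.5 CPM against 6.98, 12 and 9.01 CPM. For all 10 genes the lowest low-Malat1 library lay above the highest of the others, and all 10 were called again under each of 16 alternatives. Tuba4a overlaps Stk16 on the opposite strand, and Trappc3l, Tpbgl, Cabp7, Creg2 and Diras1 also have a neighbour on the opposite strand, whose reads cannot be told apart without strand.

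Trpm8 (chromosome 1, 88277661 to 88389293), the cold and menthol channel, was the most depleted of the named genes. It stood at 3.87, 3.33 and 1.52 CPM in low-Malat1 barcodes, from 14, 24 and 4 UMIs, and at 48.8, 57.7 and 52.1 CPM in the others. The log2 fold change was -3.96 ± 0.20, and free RNA held 23.1, 21.5 and 20.4 CPM, above the low-Malat1 level in each library. Kcnmb2 (chromosome 3, 31902507 to 32200180), an accessory subunit of calcium-activated potassium channels, stood at 8.29, 8.2 and 10.3 CPM against 129, 141 and 169 CPM (log2 fold change -3.90 ± 0.14). Sdk1, a synaptic adhesion protein, stood at 23.8, 26.7 and 24.4 CPM against 294, 335 and 325 CPM (log2 fold change -3.52 ± 0.12).

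Xist (chromosome X, 103460366 to 103483254) stood at 83.8, 88.9 and 76.9 CPM in low-Malat1 barcodes and 1378, 853 and 899 CPM in the others, a log2 fold change of -3.47 ± 0.15. Tsix runs over Xist on the opposite strand, and the reads of both cannot be told apart without strand. Kcnq1ot1, a nuclear antisense RNA of an imprinted cluster that overlaps Kcnq1 on the opposite strand, stood at 39.5, 59.2 and 53.7 CPM against 646, 521 and 557 CPM. The other 5 of the 10 most depleted genes were Hs6st3, Nav2, Iqcj, Hoxd4 and Jazf1, with log2 fold changes from -3.44 to -3.33. Hoxd4 shares its strand and part of its span with Hoxd3, and Hs6st3 and Nav2 with predicted genes, so that their counts may be split between them. All 10 kept direction and call in each of the 16 alternatives. Of these 10 genes, 8 span 93.1 kb or more, whereas none of the 10 genes with the largest excess spans more than 72.2 kb.

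**Figure D3:**
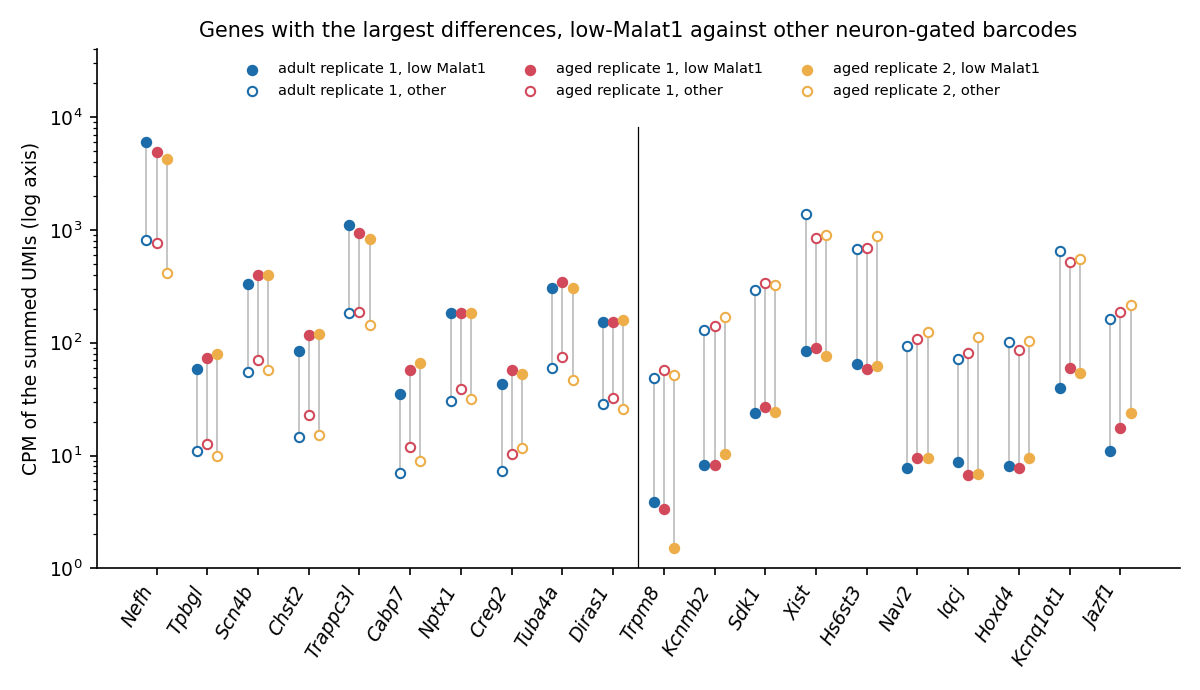
Level (CPM of the summed UMIs, log axis) of the 10 genes with the largest excess and the 10 with the largest deficit in low-Malat1 barcodes. Filled points are low-Malat1 sums and open points the other neuron-gated sums, joined within each library. The classes do not overlap for any of the 20 genes, and Nefh reaches 6040.4 CPM where Trpm8 falls to 1.52.

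Cytoplasmic machinery was higher as whole groups. Over all genes tested, 31.0% were higher and 36.9% lower, which is the background for the counts by group from here on. All 13 mitochondrial mRNAs were higher, with log2 fold changes of 1.62 to 2.02 and a median of 1.86, and mt-Nd4 stood at 1018, 1155 and 966 CPM against 323, 414 and 209.9 CPM. All 42 nuclear genes of the respiratory chain were higher as well (median 1.79), among them Atp5b, the catalytic subunit of ATP synthase, with 679.9, 726 and 668 CPM against 219, 234 and 158 CPM. All 79 ribosomal protein genes were higher (median 1.38, 0.87 to 1.79), for example Rplp1, at 546, 396 and 369 CPM against 186, 152 and 105 CPM. Processed copies of ribosomal protein genes are common in the mouse genome, and reads may be split between them.

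Of 23 housekeeping genes, mostly of glycolysis, ubiquitin and translation, 23 were higher (median 1.84). The glycolytic enzyme gene Aldoa stood at 1245, 1189.9 and 1189 CPM against 344, 347 and 252 CPM. All 12 chaperone genes were higher (median 1.71). They included the stress-inducible Hspa1a (1.44 ± 0.25), which stood at only 8.85, 8.06 and 6.47 CPM against 3.87, 3.54 and 2.1 CPM, and the abundant constitutive Hspa8 (2.02 ± 0.12), at 2549.7, 2191 and 1981 CPM against 760.0, 659 and 435 CPM. Of 11 immediate early genes tested, 8 were higher and 1, Nr4a1, was lower. Without adult replicate 1, and likewise without aged replicate 1, 5 were higher and 0 lower, and with scaling to total counts 5 were higher and 1 lower. Jun stood at 139, 221 and 216 CPM against 45.4, 64.3 and 45.8 CPM and Fos at 6.64, 2.36 and 1.14 CPM against 1.81, 1.81 and 1.29 CPM.

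Of 11 genes of axon injury tested, 7 were higher in low-Malat1 barcodes and 0 lower (median 0.70), and 4 were higher without aged replicate 1 and without the library block. After thinning 4 of 7 tested were higher and 1 lower, and without barcodes of 5 or more glial marker UMIs 3 of 7 were higher and 0 lower. Gadd45a stood at 20.7, 44.9 and 36.9 CPM against 7.94, 15.1 and 10.8 CPM (1.72 ± 0.14), and Klf6, a transcription factor of axon growth, at 66.9, 80 and 68.9 CPM against 43.8, 53.9 and 48.8 CPM (0.70 ± 0.11). Of 21 interferon-inducible genes, 3 were higher and 2 lower (median 0.04). The counts moved with the processing: 13 were higher and 0 lower among neuron-led barcodes, and 2 of 19 were higher and 9 lower after thinning to 1500 UMIs. Shares over all genes are not given for these settings, so these counts are descriptions only. H2-D1, a class I histocompatibility gene, stood at 71.6, 88.1 and 97.1 CPM against 28.7, 42.4 and 31.9 CPM (1.45 ± 0.11).

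The neuronal cytoskeleton was raised almost throughout: 23 of 24 genes were higher and 0 were lower (median 1.85). Map1b, a microtubule-associated protein of axons, stood at 18416, 14009 and 13347 CPM against 4283, 3247 and 2471 CPM, which made it more than 1% of the RNA of these barcodes. Tubb3, the neuronal beta-tubulin, stood at 2054, 1816 and 1836 CPM against 558, 477 and 374 CPM, and Prph, the intermediate filament of small sensory neurons, at 1512, 1307 and 1328 CPM against 626, 541 and 496 CPM. Map2, a microtubule protein of dendrites and cell bodies, was the exception, with 279, 369 and 369 CPM against 434, 416 and 342 CPM and a log2 fold change of -0.10 ± 0.13 that did not pass the test.

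Genes of transmitter release split by gene. Of 18, 16 were higher and 2 were lower (median 1.60). Cplx2, a complexin that clamps fusion, had 251, 244 and 278 CPM against 47.3, 54.3 and 49.6 CPM (log2 fold change 2.49 ± 0.10), and Vamp1, a vesicle SNARE, had 281, 334 and 352 CPM against 77.3, 89 and 58.9 CPM (2.24 ± 0.12). Syt1, the calcium sensor of fast release, whose gene spans 513 kb, had 589, 449 and 524 CPM against 1481, 1091 and 1355 CPM (-1.19 ± 0.11). Stx1a was lower as well (-0.45 ± 0.13).

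Ion channels went both ways, with 14 of 26 higher and 8 lower (median 0.31). Over all genes tested 31.0% were higher and 36.9% lower, so the count of lower channels lies near that share. Scn8a, the sodium channel of nodes of Ranvier, had 508, 507 and 521 CPM against 262, 223 and 224 CPM (1.25 ± 0.11). The axonal potassium channels Kcna1 and Kcna2 were higher, with log2 fold changes of 2.17 ± 0.11 and 2.47 ± 0.11 and Kcna2 at 918, 776 and 842 CPM against 187, 178 and 140.3 CPM. Scn11a, a channel of nociceptors, differed little, at 306, 289.6 and 336 CPM against 316, 315 and 348 CPM (0.06 ± 0.10), and did not pass. Kcnb2 (436 kb) and Cacna2d1 (439.8 kb) were lower, with log2 fold changes of -0.99 ± 0.13 and -1.22 ± 0.12. P2rx3, the ATP receptor of nociceptors, had 16, 30.4 and 28.2 CPM against 71.3, 83.9 and 107 CPM (-1.65 ± 0.15).

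Nuclear RNAs were lower as groups. All 10 nuclear long noncoding RNAs other than Malat1 were lower, with log2 fold changes of -3.35 to -1.85 (median -2.81). Meg3 (chromosome 12, 109541001 to 109571726), a maternally expressed imprinted RNA, had 1035, 845 and 802 CPM against 11483, 5137 and 5862 CPM, with 6262, 4183 and 3362 CPM in free RNA. Neat1, the scaffold of paraspeckles, had 41.7, 39 and 31.2 CPM against 389, 289.7 and 185 CPM. Norad (chromosome 2, 156388065 to 156392979), a noncoding RNA that works in the cytoplasm, went the other way, with 813, 949.8 and 1020.5 CPM against 222, 267 and 218 CPM (2.11 ± 0.11) and 274, 329 and 340.0 CPM in free RNA. Norad was the only 1 of 8 listed cytoplasmic noncoding RNAs that was higher. Gas5, Snhg1, Dancr and Epb41l4aos were lower, and Bc1, a dendritic RNA of neurons, differed by -0.28 ± 0.14 and did not pass the test.

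All 24 long adhesion genes were lower, with log2 fold changes of -3.31 to -1.55 (median -2.26). Csmd1, which spans 1643 kb, had 655, 624 and 611 CPM against 7722, 5322 and 5864 CPM, and Cntnap2, which spans 2245 kb, had 686, 772 and 799.7 CPM against 5052, 3552 and 3793 CPM. Splicing factors and their kinases, whose own transcripts often keep introns and stay in the nucleus, were lower in 14 of 22 cases and higher in 2 (median -0.77). Clk1, a kinase of splicing factors, had 32.6, 36.3 and 32 CPM against 179, 191 and 208 CPM (-2.36 ± 0.13), while Rbfox3, which encodes the neuronal marker NeuN, had 606, 476 and 489.9 CPM against 383, 341 and 411 CPM (0.60 ± 0.12).

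The difference followed gene length, a property the rule did not use. Over the 18574 tested genes with an annotated span, the median log2 fold change was 0.57 for genes up to 2 kb, 0.82 for 2 to 5 kb and 0.48 for 5 to 10 kb. It was 0.01 for 10 to 30 kb, -0.47 for 30 to 100 kb, -1.0 for 100 to 300 kb and -1.80 for genes over 300 kb. Of the 593 genes over 300 kb, 90.1% were lower and 3.37% higher. Genes are not independent of each other, and the rank correlation across them (Spearman's rho) is given as a description. It was -0.368 over all genes, -0.50 over protein-coding genes and -0.394 among neuron-led barcodes. Noncoding biotypes lay lower, and the part of the filter on low counts in this was not tested. The 1412 lincRNAs had a median of -1.03, at a median length near that of protein-coding genes (26998 against 27119 bases), 982 antisense genes -1.12 and 192 sense intronic genes -3.21, against -0.06 for 15423 protein-coding genes.

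**Figure D4:**
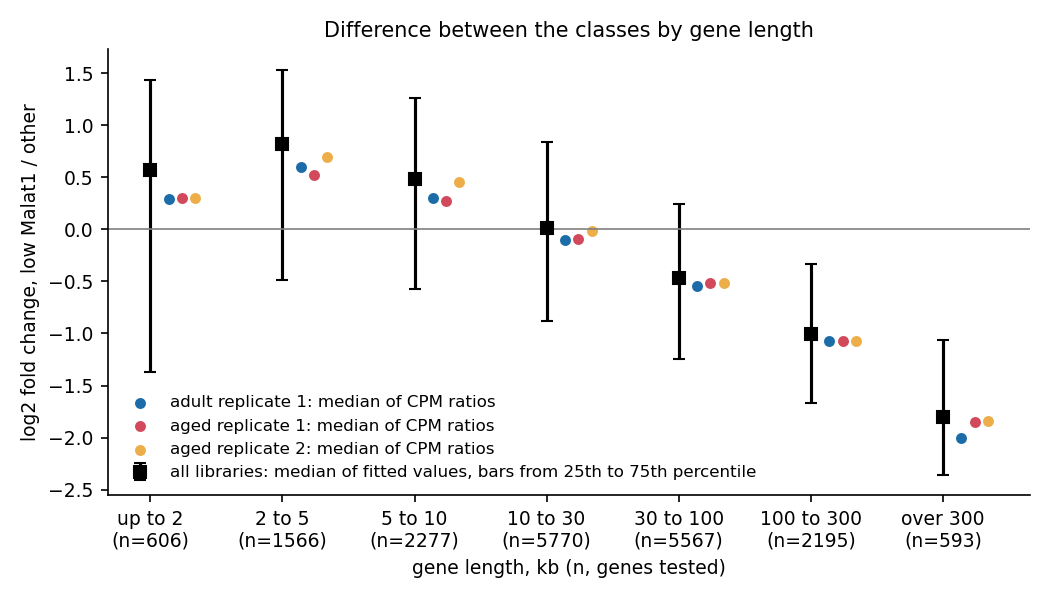
Log2 fold change of low-Malat1 against other neuron-gated barcodes by gene length in 7 bins. Squares are medians of the fitted values with bars from the 25th to the 75th percentile over genes, and coloured points are medians of the plain CPM ratios in each library. From the 2 to 5 kb bin on, the medians fall with length in all 3 libraries.

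Markers of the subtypes of sensory neuron were read after each barcode was thinned to 1500 UMIs, with a subtype gate passed at 3 or more UMIs from 2 or more of its markers. Free RNA alone would hold 4.21, 7.46 and 5.65 large-fiber and 2.33, 3.3 and 3.69 peptidergic marker UMIs in 1500, so a passed gate does not by itself show that subtype. Barcodes outside the neuron gate, with a median of 2680, 3323 and 3712 UMIs before thinning, passed the large-fiber gate in 12.6, 8.75 and 5.05% and the peptidergic gate in 0.897, 0.803 and 1.2%. The part of free RNA in the subtype shares was not tested. The subtype gates were not computed among neuron-led barcodes, which were a smaller part of the other barcodes. The part of this in the differences between the classes was not tested either. Barcodes under 1500 UMIs were left out, 16, 18 and 8 low-Malat1 and 195, 49 and 23 other ones. Large-fiber markers such as Nefh, Pvalb and Ntrk3, which mark mechanoreceptors and proprioceptors, passed in 56.1, 58.4 and 49.3% of low-Malat1 barcodes and 33, 35.7 and 29.3% of the others, a mean difference of 21.9 ± 1.64 percentage points (SD, n = 3). Nefh, with the values given above, was most of the 7728, 6315 and 5791 CPM summed over this list in low-Malat1 barcodes. It was the smaller part of the 2087, 1823 and 1488 CPM in the others. The part of Nefh in this gate was not tested. Markers of peptidergic nociceptors such as Calca, the gene of the peptide CGRP, passed in 26.7, 25.6 and 26.3% against 12, 13.2 and 12.3%, a difference of 13.7 ± 1.19 points. Both differences had the same direction in 3 of 3 libraries after thinning. Without thinning the mean differences were 0.290 and 6.50 points. The large-fiber gate was then passed by 78.1, 79.9 and 71.2% of low-Malat1 barcodes and 71.6, 79 and 77.7% of the others, so that its direction turned in aged replicate 2, while the peptidergic difference kept its direction in 3 of 3 libraries.

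Markers of Trpm8 neurons passed in 1 of 551, 1 of 958 and 0 of 377 low-Malat1 barcodes, and in 1.53, 1.52 and 1.6% of the others. Outside the neuron gate 0.299, 0 and 0% passed, so the low-Malat1 shares after thinning were near background. Without thinning 5 of 567, 13 of 976 and 6 of 385 low-Malat1 barcodes passed. As genes, all 4 listed markers, Trpm8, Foxp2, Cdh8 and Rxfp1, were lower (median -2.24). These genes span from 96.3 kb (Rxfp1) to 541 kb (Foxp2). Mrgprd nociceptor markers passed in 24, 28.8 and 30% against 22.7, 25.2 and 33.4%, markers of Sst itch neurons in 3.63, 4.49 and 7.16% against 3.54, 4.07 and 4.6%, and markers of Th low-threshold mechanoreceptors in 16.9, 7.41 and 11.7% against 12, 8.78 and 12.3%. Low-Malat1 barcodes were above the others in 2, 3 and 1 of the 3 libraries for these gates. These 3 differences were within 1.02 points on average and each was smaller than its SD of 3.62, 1.34 and 3.38 points over libraries. Without thinning, where the other barcodes are the deeper ones, the Trpm8 difference was -8.44 points, the Mrgprd -3.16, the Sst -10.7 and the Th -12.1.

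Exactly 1 subtype gate was passed by 57.9, 59.8 and 61.5% of low-Malat1 barcodes and 44.2, 43.7 and 46.6% of the others. No gate was passed by 9.44, 9.71 and 9.81% against 37.1, 35.7 and 32.6%, and more than 1 by 32.7, 30.5 and 28.6% against 18.6, 20.6 and 20.8%. These shares also hold barcodes that are not neuron-led, more of them among the others, and they depended on the setting. Without thinning, more than 1 was passed by 67.5, 70.6 and 66.2% against 61.2, 70.1 and 75.9%, turned in aged replicate 2. With 5 UMIs from 3 markers it was 2.9, 1.88 and 2.65% against 1.57, 2.16 and 1.95%, turned in aged replicate 1. No gate was then passed by 52.5, 48.7 and 47.5% against 69.6, 70.1 and 64.9%. Members of 1 subtype list differed in direction: Calca had 1567, 1030.1 and 941 CPM against 479, 358 and 308 CPM (1.75 ± 0.11), while Bmpr1b, another gene of the peptidergic list, had 12.4, 10.4 and 9.52 CPM against 38.7, 48.2 and 54.7 CPM (-1.95 ± 0.17). Mrgprd, the receptor that defines the non-peptidergic nociceptors, had 65.2, 108 and 139 CPM against 50.3, 38.9 and 39.4 CPM (1.38 ± 0.18), while Grik1, a glutamate receptor gene of 394 kb on the same list, had 664, 432 and 398 CPM against 3071, 2200.2 and 2789 CPM (-2.32 ± 0.14). Pvalb, the calcium buffer of proprioceptors, had 199, 69.9 and 57.1 CPM against 32.8, 19.9 and 12.3 CPM (2.36 ± 0.13), and Cntn3, on the same large-fiber list, 34, 35.4 and 29.3 CPM against 195, 194 and 257 CPM (-2.52 ± 0.15). Gene length moved with these differences, and its part in the subtype gates was not tested.

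Markers of other cells were present in the low-Malat1 barcodes, some lists above and some below their level in the other barcodes. The 10 satellite glia markers summed to 1237, 1268 and 1050.2 CPM, against 1062, 1403 and 759.9 CPM in the other barcodes and 2584, 2801 and 2098 CPM in free RNA. As genes, 4 were higher and 3 lower (1 and 7 after thinning to 1500 UMIs), with Apoe, a lipid carrier of glia, at 541, 525 and 417 CPM against 323, 432 and 216 CPM. The counts before thinning lie near the shares over all genes tested, 31.0% higher and 36.9% lower. The 8 markers of myelinating Schwann cells summed to 875, 834 and 845 CPM against 1181, 1042 and 607 CPM, with 1 higher and 5 lower (0 and 7 after thinning). Haemoglobin and other genes of red blood cells summed to 195, 287 and 190.3 CPM, against 192, 212 and 98.7 CPM in the other barcodes and 2037, 3217 and 1651 CPM in free RNA. The erythroid level of low-Malat1 barcodes was thus well under that of free RNA.

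Fibroblast markers summed to 231, 408 and 397 CPM in low-Malat1 barcodes, 393, 497 and 295 CPM in the others and 1631, 1846 and 1709 CPM in free RNA. Endothelial markers summed to 91.2, 76.1 and 47.6 CPM, 128, 131 and 87.8 CPM and 161, 145 and 102 CPM in the same order. Myeloid markers summed to 47.6, 90.9 and 101 CPM, 99.4, 91 and 63 CPM and 225, 336 and 397 CPM, and were higher in low-Malat1 than in other barcodes of aged replicate 2 alone. Of the 29 listed markers of fibroblasts, endothelial, mural and myeloid cells tested, 3 were higher and 12 lower in low-Malat1 barcodes. Over all genes tested 31.0% were higher and 36.9% lower, so the count of lower markers lies near that share. After thinning, 0 of 8 fibroblast markers were higher and 8 lower, 0 of 7 endothelial markers higher and 5 lower, 1 of 3 mural markers higher and 2 lower, and 0 of 8 myeloid markers higher and 2 lower. Shares over all genes are not given for the thinned sums, so these counts are descriptions only. Mural markers summed to 384, 140.0 and 217 CPM, most of it Rgs5 (370.5, 117 and 197 CPM), against 119, 82.2 and 81.6 CPM in the other barcodes and 148, 91.5 and 112 CPM in free RNA. The sum was higher in low-Malat1 barcodes of all 3 libraries, but as genes 1 of 6 was higher and 3 were lower (median -0.95). Lymphocyte markers summed to 727, 673 and 686 CPM, nearly all of it Ebf1 (695, 632 and 648 CPM), against 1829, 1447 and 1672 CPM, and were lower in all 3. Free RNA held 969, 892 and 908 CPM of this list. As the sum rests on Ebf1, it does not by itself show lymphocyte RNA. Markers of non-myelinating Schwann cells summed to 1693, 1609 and 1652 CPM against 1462, 1444 and 1441 CPM, and neurons express several of them, such as Scn7a, Ncam1 and L1cam. Across genes with at least 20 UMIs, the levels of low-Malat1 sums had a Spearman's rho with free RNA of 0.849, 0.92 and 0.903 and with the other neuron-gated sums of 0.733, 0.80 and 0.691. The other neuron-gated sums had a rho with free RNA of 0.921, 0.895 and 0.80. These are descriptions across 11341, 13029 and 10750 genes that share library and depth, and the part of free RNA in the results was not tested.

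Ages were also compared within low-Malat1 barcodes. The same limit of Malat1 was used in each library, but the level of Malat1 itself was lower in the aged libraries, and the limit took a larger share of their neuron-gated barcodes. The comparison is thus not independent of the rule, and the part of this selection in the age differences was not tested. With 1 adult library the test rests on the spread between the 2 aged libraries, which edgeR shares across genes. The adult library is assumed to vary like them, and whatever else sets it apart cannot be told apart from age. Of 13714 genes tested with edgeR, 1639 passed (12.0%), 486 higher in aged barcodes (3.54%) and 1153 lower (8.41%). Scaling to total counts turned this split into 1280 higher and 755 lower, with a median log2 fold change over all genes of 0.15 in place of 0.00. With a Malat1 limit of 0.25% 1347 genes passed, and with 1% 2870 did, of which 1086 and 1216 were among the 1639. Of the 1639 genes, 1339 were called again among neuron-led barcodes, 356 after thinning, 322 with the Wald test of DESeq2 and 148 without barcodes of 5 or more glial marker UMIs. Fold changes below are aged against adult.

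Bc1 (chromosome 7, 144914470 to 144914637), a short RNA of neuronal dendrites, showed the largest drop under the same limit. It stood at 554, 8.34 and 3.81 CPM, a log2 fold change of -6.44 ± 0.15. The other neuron-gated barcodes held 668, 12.8 and 6.91 CPM and free RNA 1160.4, 21.9 and 16.1 CPM, so the step between the ages was of like size in all of these. Ndufs5, a subunit of respiratory complex I, stood at 127, 16.8 and 17.9 CPM (-3.04 ± 0.17), with 163, 19.4 and 23.9 CPM in free RNA. Tbc1d22b, Mamdc2, Mylk, Mfap5 and Entpd4 fell as well, with log2 fold changes from -3.72 to -3.14. Fabp7, a fatty acid binding protein of satellite glia, stood at 181, 35.3 and 27.4 CPM (-2.62 ± 0.14) in these barcodes and at 193, 68.6 and 50.4 CPM in free RNA.

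Slc5a11, a sodium-coupled transporter of inositol, showed the largest rise among genes of at least 50 CPM. It stood at 4.7, 48.9 and 90.6 CPM, a log2 fold change of 3.65 ± 0.28, and free RNA held 12, 38.8 and 72.9 CPM. Cmss1 stood at 1418, 3620.0 and 5397 CPM (1.52 ± 0.09), and Gphn, the scaffold of inhibitory synapses, at 489, 1389 and 1978 CPM (1.63 ± 0.10), with 2270.4, 4192 and 6789.9 and 736, 1584 and 2544 CPM in free RNA. Lars2, mt-Atp8 and Cdr1os rose, with log2 fold changes of 1.48, 1.63 and 1.27. Of these, mt-Atp8 shares bases with mt-Atp6 on the same strand, and Cdr1os overlaps Cdr1. The neuropeptide gene Adcyap1, which encodes PACAP, stood at 36.8, 105 and 88.7 CPM (1.27 ± 0.17).

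**Figure D5:**
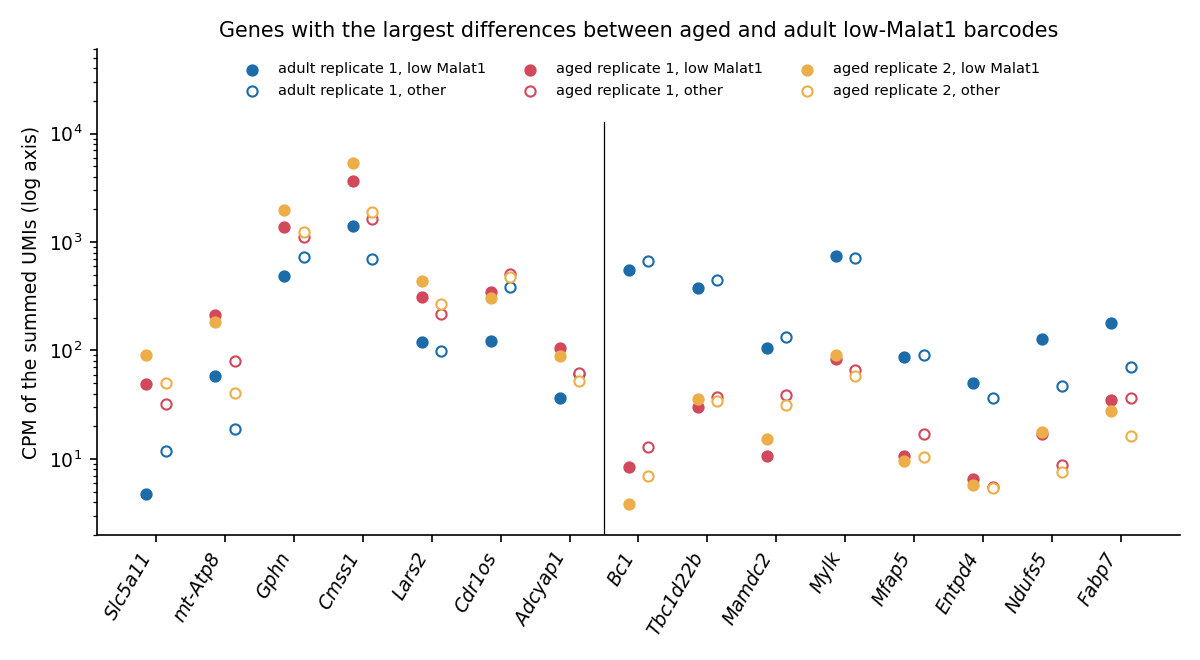
Level (CPM of the summed UMIs, log axis) of 7 of the genes that rose most and the 8 that fell most in aged against adult low-Malat1 barcodes. Colours are libraries, filled points low-Malat1 sums and open points the other neuron-gated sums. The genes were chosen to have both aged libraries on the same side of the adult one in low-Malat1 barcodes. For most of the genes the open points show a like step.

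By group, the respiratory chain was lower in aged low-Malat1 barcodes: 34 of 42 nuclear genes fell and 0 rose (median -0.68, beside 0.00 over all genes tested). Over all genes tested, 8.41% fell and 3.54% rose. Ndufa4 stood at 675, 431 and 379.9 CPM (-0.88 ± 0.10) and Cox6a1 at 648, 406 and 394 CPM (-0.84 ± 0.10), while Atp5b stood at 679.9, 726 and 668 CPM and did not pass (-0.11 ± 0.10). The median stayed below 0 in each alternative, but 21 genes passed after thinning and 5 where barcodes of 5 or more glial marker UMIs were left out. Of 79 ribosomal protein genes, 36 fell and 1 rose (median -0.31), but 0 fell without the barcodes of glial marker UMIs and 3 after thinning. The 13 mitochondrial mRNAs split, with 5 higher and 5 lower: mt-Co1 stood at 404, 896 and 889 CPM (0.99 ± 0.10) and mt-Co3 at 2013, 1333 and 1130.5 CPM (-0.85 ± 0.09), and 5 were higher and 2 lower among neuron-led barcodes. Without the barcodes of glial marker UMIs, 4 of 12 tested were higher and 0 lower (median 0.15). Of 24 cytoskeletal genes, 16 fell and 1 rose (7 and 2 after thinning, 3 and 1 without the barcodes of glial marker UMIs), with Map1b at 18416, 14009 and 13347 CPM (-0.58 ± 0.07). The interaction of class and age, tested below, had medians of 0.004, 0.026, 0.067 and 0.126 over these 42, 79, 13 and 24 genes. It compares the age difference here with that of the other neuron-gated barcodes, and 0 genes of each list passed. In the medians the step was thus of like size in both classes.

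All 5 genes of the Th mechanoreceptor list fell (median -1.20), among them Th, tyrosine hydroxylase, at 152, 61.7 and 92.1 CPM (-1.20 ± 0.13) and Tafa4, a secreted protein of these neurons, at 109, 30.3 and 35.4 CPM (-1.91 ± 0.16). Without barcodes of 5 or more glial marker UMIs, 1 of 4 fell and the median turned to 0.10. The background for the main counts here is again 3.54% rising and 8.41% falling over all genes tested. Of 10 large-fiber genes 3 rose and 4 fell (0 and 2 with DESeq2, 1 and 2 after thinning and without the barcodes of glial marker UMIs), with Pvalb at 199, 69.9 and 57.1 CPM (-1.76 ± 0.13) and Spp1, osteopontin, at 44.8, 88.9 and 85.3 CPM (0.82 ± 0.16). Of 5 genes of the Sst itch list that reached the filter on low counts in both ages, 3 rose and 1 fell. Osmr, the oncostatin M receptor, rose, at 12.2, 41.5 and 35.4 CPM (1.54 ± 0.25). Il31ra, the interleukin 31 receptor, fell, at 1226, 700.0 and 773 CPM (-0.89 ± 0.09). Nppb did not reach the filter in the adult sum and passed through the aged libraries, so its direction was fixed by that filter. Of all 6 genes tested, with Nppb included only to compare settings, 4 rose (2 with DESeq2, 1 of 5 after thinning). Calca stood at 1567, 1030.1 and 941 CPM (-0.82 ± 0.09).

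Several genes of injury, interferon response and myeloid cells were too scarce in the adult low-Malat1 sum to reach the filter on low counts there (2.76 CPM, which is 10 UMIs in a library of median size), and were tested only because the aged libraries reached it. Their direction was fixed by that filter, so they are given apart from the others. Over all genes tested 3.54% rose and 8.41% fell, and no share is given for genes that reached the filter in both ages. Of 7 axon injury genes that reached the filter in both ages, 3 rose and 0 fell. Atf3, the transcription factor induced in neurons by axon damage, stood at 3.87, 31 and 14.5 CPM (2.51 ± 0.35), Gadd45a, a stress-response gene, at 20.7, 44.9 and 36.9 CPM (0.86 ± 0.22), and Flrt3 had a log2 fold change of 0.65 ± 0.21. Sprr1a and Npy, with 2 UMIs each in the adult sum, and Cckbr, with 0 UMIs, passed through the aged libraries. Settings were compared over all 10 axon injury genes tested, with Sprr1a, Npy and Cckbr included, whose direction the filter fixed. There 6 passed, 1 with DESeq2 and 1 of 7 after thinning. Without barcodes of 5 or more glial marker UMIs 0 of 6 tested did. Of 15 interferon-inducible genes that reached the filter in both ages, 3 rose and 0 fell. They were Ifit1, Iigp1 and H2-K1, the last at 20.5, 46.1 and 44.5 CPM (1.00 ± 0.22), while Gbp2, with 8 UMIs in the adult sum, and Gbp4, with 0 UMIs, passed through the aged libraries. Over all 20 tested, with Gbp2 and Gbp4 included only to compare settings, 5 passed. With a Malat1 limit of 1% 11 of 21 passed, with DESeq2 0, and without the barcodes of glial marker UMIs 0 of 7 tested. Shares over all genes are not given for these settings. Of 8 myeloid markers tested, 3 reached the filter in both ages, of which 2 rose and 1 fell. Lyz2, the lysozyme of macrophages, stood at 3.32, 20.8 and 20.2 CPM and at 23.1, 92.7 and 108 CPM in free RNA. The part of immune RNA in the injury and interferon results was not tested.

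The age differences of low-Malat1 and other neuron-gated barcodes were compared by an interaction of class and age. Of 18610 genes, 62 passed (0.333%), 40 with a more positive age difference in low-Malat1 barcodes (0.215%) and 22 with a more negative one (0.118%), and 1166 had an unadjusted p under 0.05. Of the 62 genes, 8 were called again with the Wald test of DESeq2, 2 after thinning and 2 without barcodes of 5 or more glial marker UMIs. Bc1 differed between the classes by -0.34 and did not pass.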

How the data were processed

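Single-nucleus RNA of L3 to L5 DRG was measured in 3 libraries. The authors deposited UMI counts without normalization, from the Pipseeker software, for 32227 genes and all barcodes of each library (4880733, 1315480 and 1229208). The build in the submitters' processing notes is mm10, and gene positions are those of GENCODE M21 (GRCm38), in which 99.6% of the gene identifiers were found. Use of strand in the counting is not given in the sources used here. The members, lists and tests were chosen with earlier results of these data known.

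UMIs were summed per library and class. Sums without Malat1 were fitted in edgeR 4.0.16 (R 4.3.3, TMM, filterByExpr) by quasi-likelihood, with the library as a block for low-Malat1 against other barcodes, which leaves 2 residual degrees of freedom, and 1 for age and for the interaction. Malat1 and the 7 gate genes were left out, and Benjamini-Hochberg adjusted p under 0.05 was the threshold. Low-Malat1 sums held 3616970, 7198355 and 2627228 UMIs and the other sums 71376954, 42629431 and 30950737, so that a gene at 1 CPM rests on a few UMIs in the former. In simulated counts, 77% of 2-fold changes were found for low-Malat1 against other (18346 genes), 69.1% for age (13071 genes) and 20.6% for the interaction (18178 genes). Of the calls there, 5.08, 6.06 and 3.92% were false. The counts were drawn from the fitted means and dispersions with most genes unchanged. They check the fitting and do not measure how many real changes these data can show. The study's Wilcoxon test over nuclei was not used, since barcodes are not replicates.

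Named genes are those with the largest log2 fold change in each direction among genes past the threshold with the same sign in every library and a mean of at least 50 CPM in the class or age where they are higher (10 for the classes, 8 for age and for the interaction), without predicted genes, the 4 most abundant members of each list, and every called member of lists with fewer than 15 tested. Some genes that this rule names are not reported here. Further list members were named after their values were seen. Shares have exact Clopper-Pearson 95% intervals. Alternatives changed the Malat1 limit, the gate, the number of genes, the scaling (DESeq2 1.42.0) and the filter, left out a library or barcodes with glial marker UMIs, or thinned barcodes to 1500 UMIs. Neuron-led barcodes were added after seeing the data.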

Additional observations from a re-analysis of the deposited data

Results flagged for a closer look

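In 62 of 18610 genes the age difference differed between low-Malat1 and other neuron-gated barcodes by the edgeR test of the interaction, and the 8 largest in each direction above 50 CPM are given. Of the 62, 8 were called again with the Wald test of DESeq2, 2 after thinning and 2 without barcodes of 5 or more glial marker UMIs. Values in threes are adult replicate 1, aged replicate 1 and aged replicate 2, and the interaction is the age difference in low-Malat1 barcodes minus that in the others, as a log2 fold change.

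Among ion channel and receptor genes, Ano1, a calcium-activated chloride channel of nociceptors, stood at 7.19, 19.3 and 19.4 CPM in low-Malat1 barcodes and 52.9, 30.6 and 25.1 CPM in the others, an interaction of 2.36. The aged libraries lay above the adult one in low-Malat1 barcodes and below it in the others. Htr1f, a serotonin receptor, stood at 26, 54.3 and 65.5 CPM against 221, 188 and 199.5 CPM (interaction 1.4). Kcnv1, a modifying potassium channel subunit, stood at 51.7, 34.3 and 24 CPM against 9.41, 12.8 and 12.1 CPM (interaction -1.18), and Fxyd6, a regulator of the sodium pump, at 79.3, 31.8 and 36.2 CPM against 23.4, 28.5 and 24.8 CPM (interaction -1.41).

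Adcyap1 stood at 36.8, 105 and 88.7 CPM in low-Malat1 barcodes, higher in both aged libraries, and at 60.6, 62.3 and 52.7 CPM in the others, with an interaction of 1.49. Slc5a11 had an interaction of 2.07, with 11.9, 32.3 and 50.5 CPM in the other barcodes. Lrrtm4, a synaptic adhesion gene, stood at 14.4, 23.1 and 54.4 CPM against 192, 124 and 96.4 CPM (interaction 2.10). Fhod3 had an interaction of 1.68, Zfp13 of 1.52 and Eya2 of 1.47. Eya2 no longer passed in 7 of 11 alternatives, where its interaction kept its sign. Zfp13 and Eya2 did not pass the age test in low-Malat1 barcodes, where Zfp13 stood at 15.5, 15 and 15.6 CPM, and at 88.5, 32.8 and 28.6 CPM in the others.

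In the other direction, Tafa4 stood at 109, 30.3 and 35.4 CPM against 156, 82.5 and 153 CPM (interaction -1.20), and Sugct at 52.5, 12.9 and 17.9 CPM against 80.8, 61.7 and 61.6 CPM (interaction -1.41). Mamdc2 had an interaction of -1.21, Mylip of -1.29, Fabp7 of -1.05 and Pld5 of -1.02. Pld5 passed by a narrow margin (adjusted p = 0.0467, edgeR) and no longer did in 7 of 11 alternatives. This test has 1 residual degree of freedom and rests on 1 adult library. The share of barcodes with markers of other cells differed between the classes in every library, and its part in these values was not tested.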

How the results depend on the processing

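The comparison of low-Malat1 with other barcodes moved least. The count of 12643 genes stayed within 1.5 times under 15 of 16 alternatives and fell to 8311, 3629 of them higher, without barcodes of 5 or more glial marker UMIs, where fewer genes were tested. The share of low-Malat1 barcodes and the 4 RNA class shares kept their direction under each alternative run. Of the age calls in low-Malat1 barcodes (1639), the count rose to 2870, 1657 of them higher, with a Malat1 limit of 1%. It fell to 209 (81 higher, 128 lower) without the barcodes of glial marker UMIs, to 390 (97 higher, 293 lower) after thinning to 1500 UMIs and to 322 (37 higher, 285 lower) with the Wald test of DESeq2. Scaling to total counts gave 1280 higher and 755 lower. The interaction calls (62) depended most on the processing: 1202 (1122 higher, 80 lower) with a limit of 1%, 198 (104 higher, 94 lower) with more than 2000 genes, 155 (90 higher, 65 lower) with size factors of DESeq2 and 138 (86 higher, 52 lower) with total counts. There were 128, 77 of them lower, among neuron-led barcodes, 13 (13 higher, 0 lower) with DESeq2, 7 (2 higher, 5 lower) without the barcodes of glial marker UMIs and 5 (4 higher, 1 lower) after thinning. Of the 62 genes, 43 were called again among neuron-led barcodes and 2 without the barcodes of glial marker UMIs. The interaction of Fxyd6 turned to 0.59 without the barcodes of glial marker UMIs. Fabp7 is one of the markers on which neuron-led barcodes are chosen, so its interaction among them, 0.0672, is not compared. Subtype differences without thinning are given with the results: 6.50, -3.16, -10.7, -8.44, -12.1 and 0.290 points for the peptidergic, Mrgprd, Sst, Trpm8, Th and large-fiber gates. With 5 UMIs from 3 markers the peptidergic difference was 3.99 points, the Trpm8 difference -0.536 and the large-fiber difference 13.3. The cause of these changes was not tested. The gates, the limit and the thinning each change which barcodes or UMIs enter.

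Without a single aged library, 1 library a side is left and the age comparison is a value with no test. The age comparison without the adult library, and the interaction without any library, were not run. No paired analysis was possible because the ages share only 1 replicate number, which different animals hold. Low-Malat1 and other barcodes were compared within library.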
